A study of Mus musculus with 12 samples.

Results

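The genes described here are 10 components and readouts of the Hippo-YAP pathway, chosen by name from the 23022 genes of an RNA-seq table. They are *Yap1*, *Wwtr1* and *Tead1*, which act in the nucleus, *Lats2*, *Amotl2* and *Ajuba*, which act on YAP or on the kinases above it, and the target genes *Cyr61*, *Ctgf*, *Axl* and *Ankrd1*. The table listed 9 of them under these names, and *Ajuba* was found through its Ensembl gene ID (ENSMUSG00000022178) under the older name Jub. Of the 10 genes, 9 reached 1 TPM in at least 3 libraries and were tested. *Ankrd1* was listed at 0 in all 12 libraries and was not tested.

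The Hippo pathway is a kinase cascade that restrains the coactivators YAP and TAZ. The MST kinases activate the LATS kinases, which phosphorylate YAP and TAZ and keep them in the cytoplasm, where they can be degraded. When the cascade is off, YAP and TAZ enter the nucleus and bind TEAD transcription factors at genes such as *Ctgf* and *Cyr61*. Cell density, attachment and tension in the actin cytoskeleton feed into the cascade, and in melanoma YAP and TAZ are known for their part in invasive cell states. Most of this control acts on the proteins, which RNA-seq does not measure.

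The samples were B16-F10 cells, a mouse melanoma line from C57BL/6 mice, and all carried Cas9. Control cells, labelled No template control, received a non-targeting guide (NTC), and the compared cells were edited at *Mbnl1* and *Mbnl2*, which encode muscleblind-like RNA-binding proteins (DKO). Each genotype was left unstimulated or treated with interferon gamma (IFNγ), which gave 4 groups of 3 libraries. By the study's methods the edited cells descended from a Cas9-expressing clone, and the polyclonal edited populations kept some MBNL protein. The comparisons ask how loss of MBNL changes melanoma cells at rest and in their response to IFNγ. Nothing in the labels says that the libraries of a group came from separate cultures, so p-values measure the spread between these libraries, which may be technical.

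Values are in TPM, a level corrected for transcript length and for the size of the library, so that genes can be compared within a library. The listed genes summed to between 844185 and 874612 TPM in NTC libraries and between 805782 and 827191 TPM in DKO libraries. TPM do not keep sequencing depth. *Mbnl1* RNA lay between 55.6 and 63.9 TPM in NTC and between 41.1 and 47.5 TPM in DKO libraries, and *Mbnl2* RNA between 99.2 and 107 TPM against 83.9 and 98.0 TPM, so both edited genes were lower in every DKO library while their RNA was still present. The melanocyte markers fixed for the check (*Mitf*, *Sox10*, *Pmel*, *Tyr*, *Tyrp1*, *Dct*, *Mlana*) were all detected, with a summed level of 16600 to 18600 TPM in NTC and 11100 to 12400 TPM in DKO libraries. Of these 7 markers, 7 were lower in untreated DKO cells and 6 in treated DKO cells by the test used below. Over all tested genes 19.4% and 23.9% were lower in these comparisons. After IFNγ 4 markers were higher and 1 lower in NTC cells, and 1 was higher in DKO cells. Over all tested genes 7.31% were higher and 4.78% lower in NTC cells, and 0.677% higher in DKO cells. Several of these marker calls were lost under the 20 alternative settings listed at the end. In NTC cells *Mitf* passed in 20, *Tyr* and *Tyrp1* in 13 each and *Sox10*, the lower one, in 8. *Pmel* in DKO cells passed in 7. In bulk RNA, fewer cells of a type and less RNA per cell cannot be told apart. Summed fibroblast markers ran from 0.47 to 0.789 TPM in NTC and from 0.767 to 1.05 TPM in DKO libraries, and summed endothelial markers from 0 to 0.624 TPM and from 0.565 to 0.914 TPM. Of the leukocyte markers, *Ptprc* and *Cd3e* were at 0 in every library, and *Cd68* lay at 1.51 to 2.62 TPM in NTC and 2.40 to 6.49 TPM in DKO libraries. What part these markers have in the results below was not tested.

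TEAD factors bind the hexamer CATTCC, whose reverse complement is GGAATG. In RefSeq promoter windows of assembly GRCm38.p6, which run from 250 bases before a transcript start to 50 bases after it, this motif was searched on both strands. Windows were found for 8 of the 10 genes, the exceptions being *Ctgf* and *Tead1*, and all 8 genes had at least 1 match. In all, 9 of their 10 windows held the motif, against 14.7% of the 32851 windows in the table. By gene, 8 of 8 stands against 16.6% of the 27025 genes with a window, 33.3% of 30 other Hippo pathway genes and 16.7% of 12 other YAP/TAZ targets. *Lats2* had its match 5 bases after 1 of its 2 listed starts. A match is a run of letters, and binding was not measured here. The 250 bases before the start are given 5′ to 3′ for the 2 coactivators and for the 2 targets whose RNA differed most between groups, with the motif in capitals.
Cyr61, chr3:145649986-145650235, minus strand: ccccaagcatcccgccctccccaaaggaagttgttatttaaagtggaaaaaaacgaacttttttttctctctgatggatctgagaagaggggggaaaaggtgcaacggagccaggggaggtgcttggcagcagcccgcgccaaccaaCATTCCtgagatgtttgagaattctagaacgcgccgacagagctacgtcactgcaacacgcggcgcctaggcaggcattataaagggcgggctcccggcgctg
Axl, chr7:25788734-25788983, minus strand: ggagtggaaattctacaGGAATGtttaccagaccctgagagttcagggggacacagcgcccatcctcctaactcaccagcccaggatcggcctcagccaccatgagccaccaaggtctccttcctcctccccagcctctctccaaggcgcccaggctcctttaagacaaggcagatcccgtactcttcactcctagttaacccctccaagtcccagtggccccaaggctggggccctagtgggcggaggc
Yap1, chr9:8004597-8004846, minus strand: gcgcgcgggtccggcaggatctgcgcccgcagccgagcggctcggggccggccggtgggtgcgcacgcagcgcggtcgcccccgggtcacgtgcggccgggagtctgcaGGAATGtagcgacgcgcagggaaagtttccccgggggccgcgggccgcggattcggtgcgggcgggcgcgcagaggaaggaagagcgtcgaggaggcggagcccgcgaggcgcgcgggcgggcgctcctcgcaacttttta
Wwtr1, chr3:57575911-57576160, minus strand: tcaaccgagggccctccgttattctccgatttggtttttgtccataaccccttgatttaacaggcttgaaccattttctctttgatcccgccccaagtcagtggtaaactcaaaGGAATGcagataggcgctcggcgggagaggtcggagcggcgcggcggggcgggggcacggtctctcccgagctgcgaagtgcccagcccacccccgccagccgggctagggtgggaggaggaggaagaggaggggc

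The match lay 103 bases before the start in *Cyr61*, 233 in *Axl*, 141 in *Yap1* and 136 in *Wwtr1*. A second, overlapping *Wwtr1* window holds the same match at 170 bases from its own start. Shorter stretches show the matches in *Amotl2*, at 65 bases before the start, in *Ajuba*, at 186 and 164 bases, and in *Ankrd1*, at 210 and 123 bases, again with the motif in capitals (a single capital at an end of an *Ajuba* stretch belongs to its neighbouring match).
Amotl2, chr9:102717722-102717761, plus strand: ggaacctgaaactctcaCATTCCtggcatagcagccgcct
Ajuba, distal match, chr14:54577825-54577864, minus strand: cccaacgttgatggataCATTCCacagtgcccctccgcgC
Ajuba, proximal match, chr14:54577803-54577842, minus strand: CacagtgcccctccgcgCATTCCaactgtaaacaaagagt
Ankrd1, distal match, chr19:36120032-36120071, minus strand: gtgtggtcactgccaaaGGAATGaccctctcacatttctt
Ankrd1, proximal match, chr19:36119945-36119984, minus strand: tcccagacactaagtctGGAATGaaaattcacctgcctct

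The search for a CArG box, the site of serum response factor, found no match in the 10 windows. This motif occurs in 1.6% of all windows. The GAS motif TTCNNNGAA, searched in the same way, had no match in the 10 windows either and occurs in 8.3% of all windows.

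**Figure D1:**
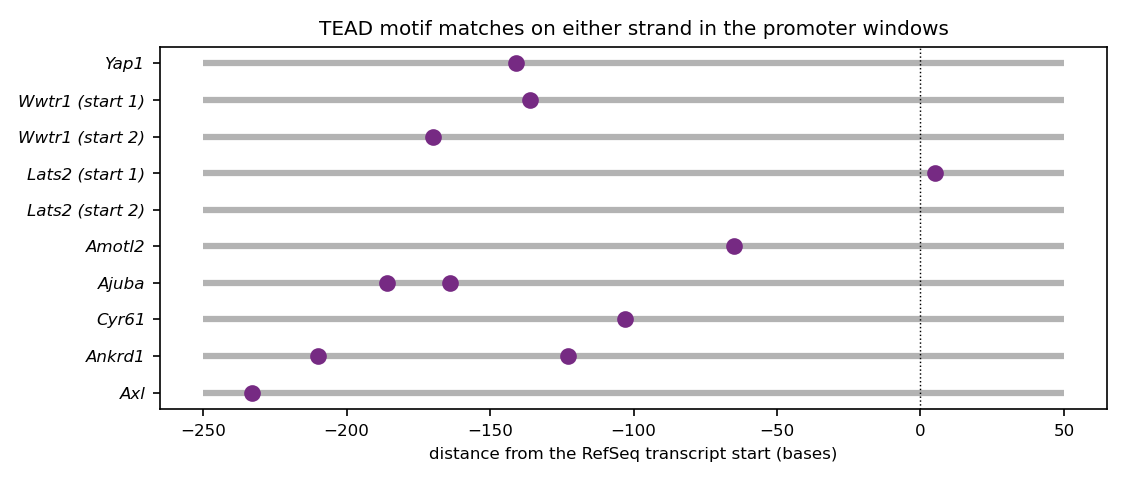
Positions of the TEAD motif, on either strand, in the RefSeq promoter windows of the 8 genes with a window; the x axis is the distance in bases from the transcript start (0, dotted line) and each grey bar is 1 window of 300 bases. Matches fall between 233 and 65 bases before the start except in Lats2, where it lies 5 bases after 1 start.

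The levels of these genes spanned a wide range. Over the 12 libraries *Yap1* averaged 65.0 TPM and *Wwtr1* 48.8 TPM, levels exceeded by 9.5% and 12.8% of the listed genes. *Amotl2* (22.3 TPM), *Tead1* (16.4 TPM), *Ajuba* (14.3 TPM), *Cyr61* (12.5 TPM) and *Lats2* (10.8 TPM) formed a middle range. In this order, *Tead1* and *Ajuba* overlapped in both DKO groups and in neither NTC group, as did *Ajuba* and *Cyr61*, while *Amotl2* and *Tead1* overlapped in treated NTC libraries alone, as did *Cyr61* and *Lats2*. *Axl* (3.27 TPM) and *Ctgf* (1.82 TPM) were lowest among the detected genes. In each library all 4 targets had lower levels than both coactivators.

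**Figure D2:**
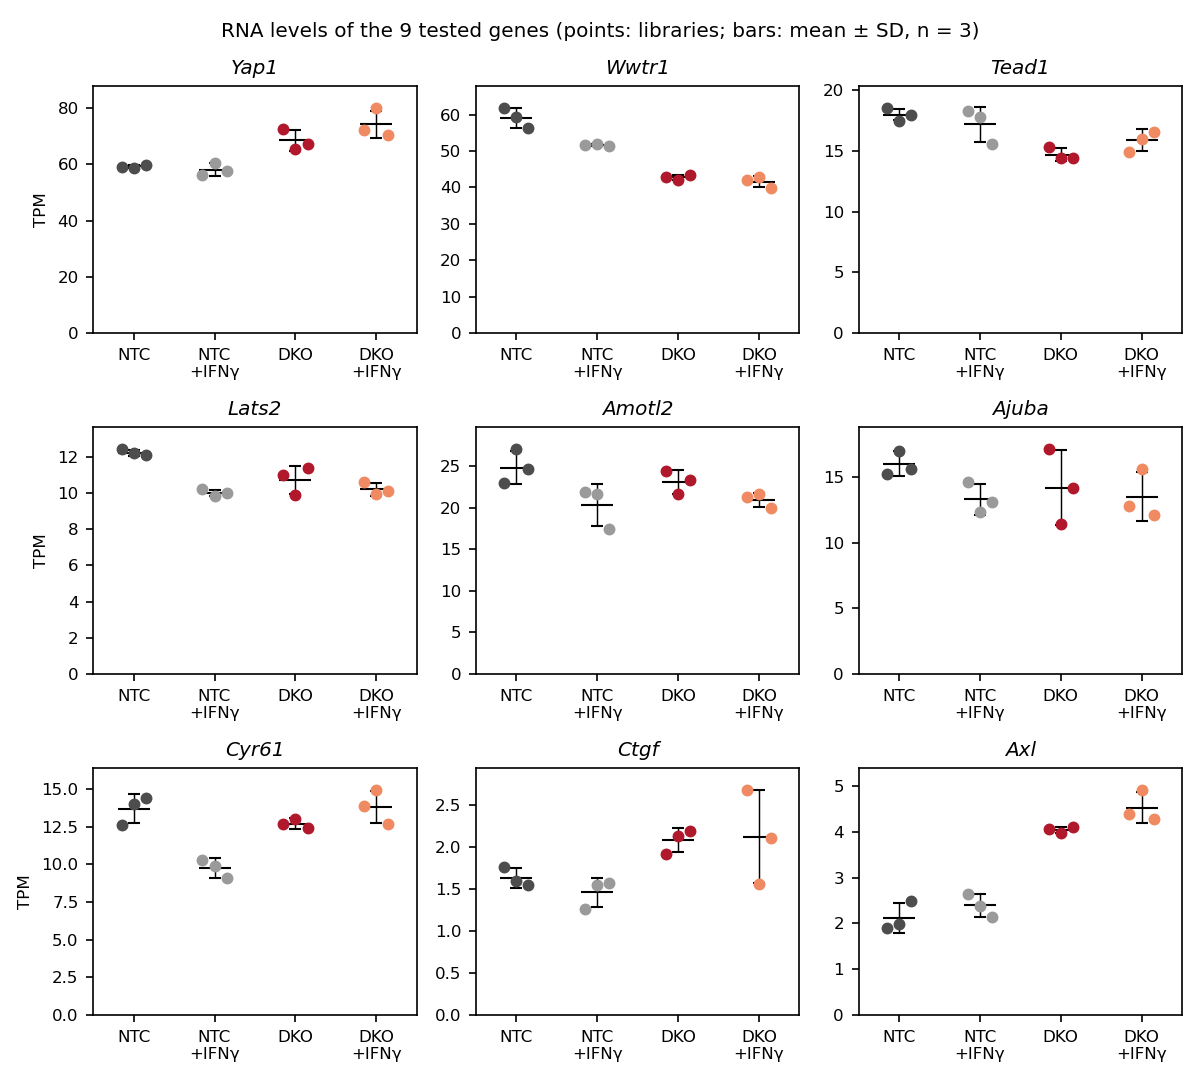
RNA level in TPM (y axis, from 0) of the 9 tested genes in each library, by group (x axis); points are libraries, horizontal bars the group mean and whiskers the SD of 3 libraries. Yap1 and Axl sit higher and Wwtr1 lower in all DKO libraries, and Cyr61 is lowest in the 3 treated NTC libraries.

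The 2 coactivators moved in opposite directions with the genotype. *Yap1* (chr9:7931999-8004596, minus strand, GRCm38) encodes YAP. Its RNA measured 59.1, 58.8 and 59.9 TPM in untreated NTC, 56.1, 60.5 and 57.6 TPM in treated NTC, 72.6, 65.4 and 67.4 TPM in untreated DKO and 72.2, 79.9 and 70.6 TPM in treated DKO libraries. All 6 DKO libraries lay above all 6 NTC libraries. The limma fit on log2(TPM + 1), adjusted over 11663 tested genes, gave a difference between DKO and NTC of 0.20 (SE 0.0544, 95% interval 0.09 to 0.32, adjusted p = 0.00984) without IFNγ and 0.35 (interval 0.23 to 0.46, adjusted p = 0.000228) with it. Without the first untreated DKO library, the first of these was 0.16 with an adjusted p of 0.0504. *Yap1* shares 116 exonic bases with Gm20416 on the opposite strand, which unstranded libraries cannot separate.

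*Wwtr1* (chr3:57455649-57575910, minus strand) encodes TAZ, the paralog of YAP. Its level was 61.7, 59.4 and 56.2 TPM in untreated NTC, 51.7, 52.0 and 51.5 TPM in treated NTC, 42.9, 42.0 and 43.4 TPM in untreated DKO and 42.0, 43.0 and 39.9 TPM in treated DKO libraries. Here every DKO library lay below every NTC library, and the treated NTC libraries lay between the untreated NTC and the DKO libraries. In DKO cells *Wwtr1* was lower by a log2 difference of -0.46 (SE 0.0459, interval -0.56 to -0.36, adjusted p = 6.81e-06) without IFNγ and of -0.31 (interval -0.41 to -0.21, adjusted p = 0.00016) with it.

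In untreated NTC libraries the levels of the 2 coactivators overlapped. In treated NTC libraries and in both DKO groups they did not, with *Yap1* the higher. The ratio of *Yap1* to *Wwtr1* TPM within a library does not depend on how libraries are scaled. It was 0.957, 0.991 and 1.06 in untreated NTC, 1.09, 1.16 and 1.12 in treated NTC, 1.69, 1.56 and 1.55 in untreated DKO and 1.72, 1.86 and 1.77 in treated DKO libraries. The DKO ratio was 1.59 times that of NTC without IFNγ and 1.59 times with it. The sum of both genes covered nearly the same range in the 2 genotypes, 108 to 121 TPM in NTC and 107 to 123 TPM in DKO libraries.

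*Tead1* (chr7:112679318-112906807, plus strand) encodes a DNA-binding partner of YAP and TAZ. Transcript levels were 18.5, 17.5 and 18.0 TPM in untreated NTC, 18.3, 17.8 and 15.6 TPM in treated NTC, 15.3, 14.4 and 14.4 TPM in untreated DKO and 14.9, 16 and 16.6 TPM in treated DKO libraries. The untreated groups did not overlap and the treated groups did. *Tead1* was lower in untreated DKO cells by a log2 difference of -0.27 (SE 0.0665, interval -0.42 to -0.13, adjusted p = 0.00588), and with IFNγ the difference was -0.11 (interval -0.25 to 0.03, adjusted p = 0.207).

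*Tead2* and *Tead3* went the other way. *Tead2* had the highest mean of the 4 TEAD genes in every group, although its libraries overlapped those of *Tead1* in treated NTC cells. It stood at 23.9, 23.2 and 23.4 TPM in untreated NTC, 19.8, 17.9 and 16.8 TPM in treated NTC, 43.8, 40.6 and 45.0 TPM in untreated DKO and 34.5, 39.0 and 33.2 TPM in treated DKO libraries. *Tead2* was higher in DKO cells by a log2 difference of 0.85 (SE 0.0703, adjusted p = 1.27e-06) without IFNγ and of 0.93 (adjusted p = 5.07e-07) with it. *Tead3* was higher as well, with differences of 0.60 (adjusted p = 0.000984) and 0.64 (adjusted p = 0.000518). *Tead4* differed by 0.12 (adjusted p = 0.246) without IFNγ and was higher by 0.32 (adjusted p = 0.00369) with it. Summed over *Tead1* to *Tead4*, NTC libraries held 40.3 to 51.1 TPM and DKO libraries 61.5 to 72.9 TPM. The share of *Tead1* in that sum was 34.6% to 40.3% in NTC and 19.7% to 27.0% in DKO libraries.

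**Figure D3:**
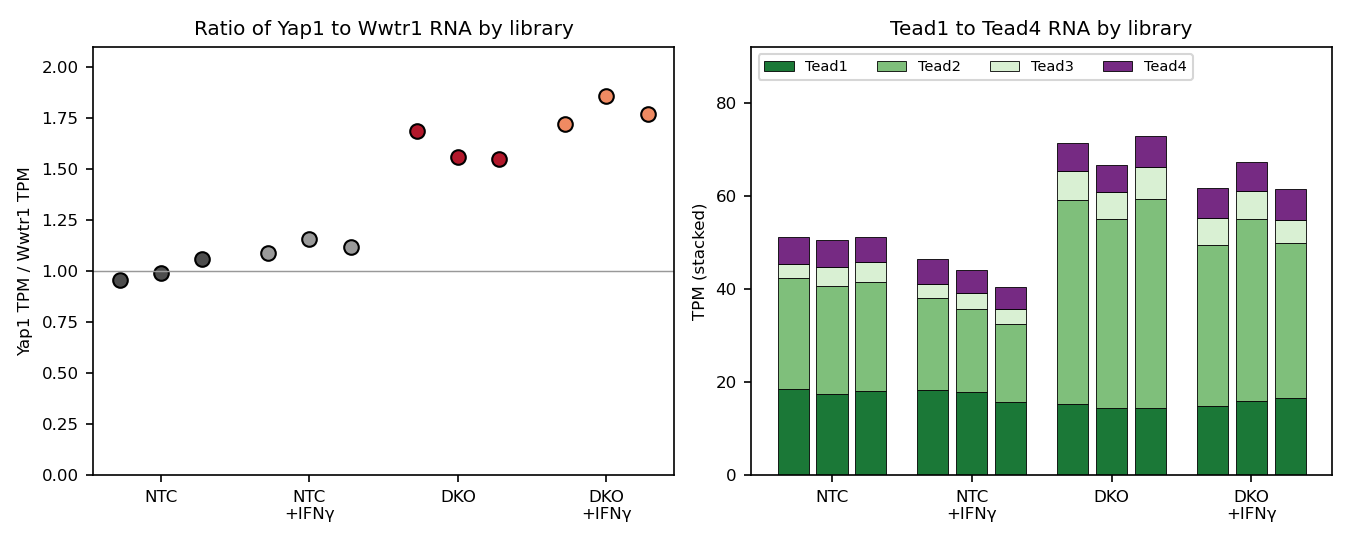
Left, the ratio of Yap1 to Wwtr1 TPM (y axis, from 0) in each library by group, with a line at 1. Right, stacked TPM of Tead1 to Tead4 in each library. The ratio runs from 0.957 to 1.16 in NTC and from 1.55 to 1.86 in DKO libraries, and the taller DKO bars consist mostly of Tead2.

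Of the 3 genes that act on YAP or on its kinases, 1 passed the test between genotypes without IFNγ and 0 with it. Over all tested genes 36.4% and 43.3% were called in these comparisons. *Lats2* (chr14:57689662-57758388, minus strand) encodes a kinase that phosphorylates YAP and TAZ and is itself a YAP target. It was measured at 12.4, 12.2 and 12.1 TPM in untreated NTC, 10.2, 9.82 and 9.99 TPM in treated NTC, 11.0, 9.90 and 11.4 TPM in untreated DKO and 10.6, 9.96 and 10.1 TPM in treated DKO libraries. The 3 untreated NTC libraries were the highest of the 12. *Lats2* was lower in untreated DKO cells by a log2 difference of -0.17 (SE 0.0622, interval -0.31 to -0.04, adjusted p = 0.0418), and with IFNγ the difference was 0.03 (interval -0.10 to 0.16, adjusted p = 0.726). The untreated call did not hold when libraries were scaled to the same total (-0.13, adjusted p = 0.117), in a fit of the 6 untreated libraries alone (adjusted p = 0.0659), or when any untreated library other than the third of DKO, or the third treated NTC library, was left out (largest adjusted p = 0.179). *Lats2* shares 2955 exonic bases with the protein-coding model Gm49361 on the same strand, which the table does not list.

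*Amotl2* (chr9:102716672-102733418, plus strand) encodes an angiomotin-like protein that binds YAP, and it is also a YAP target. Its RNA lay at 23.0, 27.0 and 24.6 TPM in untreated NTC, 21.9, 21.6 and 17.4 TPM in treated NTC, 24.4, 21.6 and 23.3 TPM in untreated DKO and 21.3, 21.6 and 20.0 TPM in treated DKO libraries. The genotypes overlapped under both conditions. The difference between DKO and NTC was -0.10 (interval -0.28 to 0.08, adjusted p = 0.389) without IFNγ and 0.05 (interval -0.13 to 0.23, adjusted p = 0.663) with it.

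*Ajuba* (chr14:54567472-54577558, minus strand) encodes a LIM-domain protein that inhibits LATS. Its level came to 15.2, 17.0 and 15.6 TPM in untreated NTC, 14.6, 12.3 and 13.1 TPM in treated NTC, 17.1, 11.4 and 14.2 TPM in untreated DKO and 12.8, 15.6 and 12.1 TPM in treated DKO libraries. The untreated DKO libraries alone spanned the whole range of the gene, from 11.4 to 17.1 TPM. The difference was -0.17 (interval -0.44 to 0.09, adjusted p = 0.301) without IFNγ and 0.01 (interval -0.25 to 0.28, adjusted p = 0.946) with it.

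The 4 target genes did not behave alike. *Axl* (chr7:25757273-25788705, minus strand) encodes a receptor tyrosine kinase of the TAM family and is a YAP target linked to invasive melanoma. Its RNA measured 1.89, 1.99 and 2.49 TPM in untreated NTC, 2.65, 2.37 and 2.14 TPM in treated NTC, 4.06, 3.97 and 4.10 TPM in untreated DKO and 4.38, 4.90 and 4.27 TPM in treated DKO libraries. Every DKO library lay above every NTC library. *Axl* was higher in DKO cells by a log2 difference of 0.70 (SE 0.0986, interval 0.48 to 0.91, adjusted p = 0.000121) without IFNγ and of 0.70 (interval 0.49 to 0.92, adjusted p = 9.26e-05) with it. This was the largest genotype difference among the 9 tested genes under both conditions, and on the scale with 1 TPM added it understates the change of a gene this low.

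*Cyr61* (chr3:145646976-145649981, minus strand), now also named *Ccn1*, encodes a secreted matricellular protein and is among the most used readouts of YAP. Its values were 12.6, 14.0 and 14.4 TPM in untreated NTC, 10.3, 9.91 and 9.06 TPM in treated NTC, 12.7, 13.0 and 12.4 TPM in untreated DKO and 13.9, 14.9 and 12.7 TPM in treated DKO libraries. The 3 treated NTC libraries lay below the other 9. The genotypes overlapped without IFNγ, with a difference of -0.10 (interval -0.26 to 0.06, adjusted p = 0.319). With IFNγ *Cyr61* was higher in DKO cells by 0.46 (SE 0.0736, interval 0.30 to 0.62, adjusted p = 0.000257).

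*Ctgf* (chr10:24595442-24598683, plus strand), or *Ccn2*, encodes a matricellular protein of the same family. Its RNA stood at 1.76, 1.59 and 1.54 TPM in untreated NTC, 1.26, 1.55 and 1.57 TPM in treated NTC, 1.92, 2.13 and 2.19 TPM in untreated DKO and 2.67, 1.56 and 2.11 TPM in treated DKO libraries. The untreated DKO libraries lay above the untreated NTC libraries, and 1 treated DKO library overlapped treated NTC. The differences, 0.23 (interval -0.05 to 0.50, adjusted p = 0.183) without IFNγ and 0.33 (interval 0.05 to 0.60, adjusted p = 0.0516) with it, did not pass the threshold. Without the second treated DKO library the latter was 0.46 (adjusted p = 0.01), and it passed when libraries were scaled to the same total (0.38, adjusted p = 0.024) or by median ratios (0.34, adjusted p = 0.0456). *Ctgf* shares 665 exonic bases with Gm15270 on the opposite strand, and reads of the 2 cannot be told apart in these unstranded libraries. *Ankrd1* (chr19:36111961-36120099, minus strand), which encodes a cardiac ankyrin repeat protein and is a widely used YAP target, was listed at 0 in every library.

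Counted together, 5 of the 9 tested genes differed between untreated DKO and NTC cells, 2 higher (*Yap1*, *Axl*) and 3 lower (*Wwtr1*, *Tead1*, *Lats2*). Over all tested genes 36.4% were called in that comparison, 17.0% higher and 19.4% lower. With IFNγ, 4 of the 9 genes differed, 3 higher (*Yap1*, *Axl*, *Cyr61*) and 1 lower (*Wwtr1*), where 43.3% of all tested genes were called, 19.5% higher and 23.9% lower. The share of higher calls over all genes moved with the scaling, from 46.7% to 60.7% without IFNγ and from 44.9% to 65.3% with it when libraries were scaled to the same total. *Yap1*, *Wwtr1* and *Axl* were called in the same direction in both comparisons, as were 27.5% of all tested genes. Groups of libraries did not overlap for 6 of the 9 genes without IFNγ and for 4 with it, against 51.6% and 49.9% of all tested genes. The median difference of the 9 genes was -0.10 and 0.05, against -0.01 for all genes in both comparisons. Without the first untreated DKO library, 3 of the 9 genes were called in untreated cells.

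**Figure D4:**
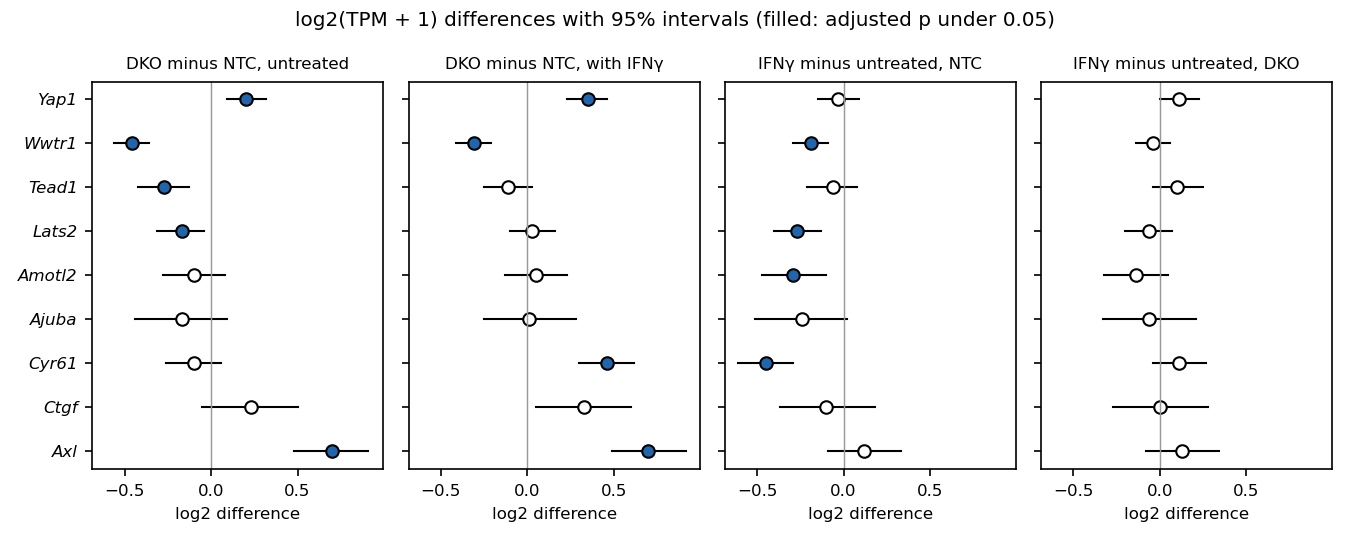
Differences in log2(TPM + 1) (x axis) of the 9 tested genes in 4 comparisons, with 95% intervals; filled points have an adjusted p under 0.05. Filled points number 5 and 4 for DKO against NTC, 4 for IFNγ in NTC cells and 0 for IFNγ in DKO cells.

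After IFNγ, 4 of the 9 genes were lower and none higher in NTC cells. Over all tested genes 12.1% were called, 7.31% higher and 4.78% lower. *Cyr61* showed the largest change, with a log2 difference of -0.45 (interval -0.61 to -0.29, adjusted p = 0.00342), followed by *Amotl2* with -0.29 (SE 0.0851, interval -0.47 to -0.10, adjusted p = 0.0461), *Lats2* with -0.27 (interval -0.40 to -0.13, adjusted p = 0.0189) and *Wwtr1* with -0.19 (interval -0.29 to -0.09, adjusted p = 0.023). Those 4 genes and *Ajuba* (-0.24, interval -0.51 to 0.02, adjusted p = 0.188) had no overlap between treated and untreated libraries, as had 36.6% of all tested genes. *Yap1* (-0.03, interval -0.15 to 0.09), *Tead1* (-0.06), *Ctgf* (-0.10) and *Axl* (0.12) did not pass the threshold. The median of the 9 genes was -0.19, against 0.02 for all genes.

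The *Cyr61* call held in all 20 alternatives, at -0.50 to -0.40. The other 3 calls were each lost in some of the fits with 1 library left out. In these fits *Lats2* ran from -0.28 to -0.26 (adjusted p up to 0.0667) and *Wwtr1* from -0.22 to -0.16 (adjusted p up to 0.0766). *Amotl2* had a wider range, from -0.34 to -0.18. In each such fit, 4 or 5 of the 9 genes had an unadjusted limma p under 0.05. The count of 4 dropped to 1 without the second untreated, the second treated or the third treated NTC library, and to 2 without the third untreated one. *Amotl2* was -0.18 (adjusted p = 0.158) without the third treated NTC library. It passed in 7 of 20 alternatives, and with a replicate block its adjusted p was 0.0524. With trends of GC content and exonic length removed, a setting chosen after seeing the data, 2 of the 9 genes were called, *Amotl2* at -0.17 (adjusted p = 0.219) and *Lats2* at -0.22 (adjusted p = 0.0629) no longer being among them.

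In DKO cells none of the 9 genes passed the threshold after IFNγ. None had an unadjusted limma p under 0.05, which 1119 of all 11663 tested genes had. Over all tested genes 0.78% were called in this comparison, 0.677% higher and 0.103% lower. *Amotl2* (-0.14) and *Axl* (0.13) had no overlap between treated and untreated DKO libraries, which held for 14.7% of all tested genes. *Cyr61* differed by 0.11 (interval -0.04 to 0.27, adjusted p = 0.675), and *Wwtr1* by -0.04. The median of the 9 was 0.00, against 0.01 for all genes.

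A call in NTC cells and none in DKO cells does not show that the responses differ, so the difference of the 2 responses was fitted in the same model. None of the 9 genes passed the threshold, where 0.0343% of all tested genes did (0.00857% higher and 0.0257% lower). Of the 9, 3 had an unadjusted limma p under 0.05, as had 1340 of all 11663 tested genes. *Cyr61* had the largest difference in response, 0.56 (SE 0.104, interval 0.34 to 0.79, unadjusted p = 0.000112, adjusted p = 0.123), and its adjusted p ran from 0.0756 to 0.421 over 19 alternatives. The other 2 with an unadjusted p under 0.05 were *Lats2* with 0.20 (interval 0.02 to 0.39, adjusted p = 0.42) and *Wwtr1* with 0.15 (interval 0.01 to 0.29, adjusted p = 0.42). The difference for *Axl* was 0.01 (interval -0.29 to 0.31). This comparison shares its libraries with the others, so that a low *Cyr61* level in treated NTC cells enters the IFNγ effect in NTC, the genotype difference with IFNγ and the difference in response alike.

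Other genes of the pathway were read from a list of 36, of which 33 were tested. Without IFNγ, 9 were higher and 5 lower in DKO cells, and with IFNγ 12 were higher and 6 lower. These 14 and 18 called genes stand beside 36.4% and 43.3% of all tested genes called, with 17.0% and 19.5% higher and 19.4% and 23.9% lower. After IFNγ 1 was higher and 2 lower in NTC cells, and none passed the limma test in DKO cells. Over all tested genes 7.31% were higher and 4.78% lower in NTC cells, and 0.78% were called in DKO cells. The median difference of the 33 between genotypes was 0.04 under both conditions.

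The core kinases and their adaptors were called in both directions, 2 higher and 4 lower of 12 without IFNγ, and 2 higher and 5 lower with it, where 36.4% and 43.3% of all tested genes were called. *Stk3* and *Stk4*, which encode the MST kinases at the head of the cascade, were both lower. *Stk4* stood between 35.6 and 39.3 TPM in NTC and between 28.7 and 31.9 TPM in DKO libraries, a difference of -0.30 (SE 0.048, adjusted p = 0.0003) without IFNγ and -0.34 (adjusted p = 9.61e-05) with it. For *Stk3* the differences were -0.30 (adjusted p = 0.0141) and -0.42 (adjusted p = 0.00175). Without the first untreated NTC library the untreated *Stk3* difference was -0.24 (adjusted p = 0.0692), and without the second untreated DKO library it was -0.27 (adjusted p = 0.0548). *Mob1a*, the LATS coactivator, was lower (log2 difference -0.35, adjusted p = 0.000398) with IFNγ. The 2 higher kinases, *Map4k4* and *Taok2*, act on LATS and MST and are named after their values were seen. *Map4k4* was higher by 0.37 (adjusted p = 8.92e-06) and 0.38 (adjusted p = 6.26e-06), and *Taok2* by 0.16 (adjusted p = 0.0458) and 0.26 (adjusted p = 0.00334).

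Among the upstream scaffolds and inputs, 3 of 11 tested genes were higher and none lower without IFNγ, and 5 higher and none lower with it, beside 17.0% and 19.5% higher and 19.4% and 23.9% lower over all tested genes. The 3 genes called without IFNγ are a smaller share than the 36.4% called over all tested genes. *Wwc1*, which encodes the scaffold KIBRA, stood between 5.31 and 7.22 TPM in NTC and between 8.18 and 9.81 TPM in DKO libraries. It was higher by 0.44 (adjusted p = 0.000951) without IFNγ and 0.71 (adjusted p = 1.85e-05) with it. The TEAD and VGLL factors other than *Tead1* were called in 1 direction, 4 of 5 tested genes higher without IFNγ and 5 of 5 with it, where 17.0% and 19.5% of all tested genes were higher. Besides the TEAD genes these were *Vgll3* and *Vgll4*, which encode cofactors that bind TEAD and are named after their values were seen. *Vgll4*, known as a competitor of YAP for TEAD, was higher by 0.34 (adjusted p = 0.00129) and 0.43 (adjusted p = 0.000199), and *Vgll3* by 0.29 (adjusted p = 0.00346) and 0.43 (adjusted p = 0.000155). Of the 5 STRIPAK components, which hold the phosphatase that counters MST, 1 was lower in each genotype comparison, *Strn4* (log2 difference -0.24, adjusted p = 0.00826) without IFNγ and *Strn3* (log2 difference -0.24, adjusted p = 0.00908), named after its values were seen, with it.

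After IFNγ in NTC cells, *Tead2* (log2 difference -0.35, adjusted p = 0.0117) and *Strn4* (log2 difference -0.26, adjusted p = 0.0236) were lower, while *Strn* was higher by 0.19 (adjusted p = 0.0464). Removal of the GC content and length trends gave -0.21 for *Tead2* (adjusted p = 0.0421, or 0.0665 with the replicate block), -0.15 (adjusted p = 0.0599) for *Strn4* and 0.11 (adjusted p = 0.351) for *Strn*.

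**Figure D5:**
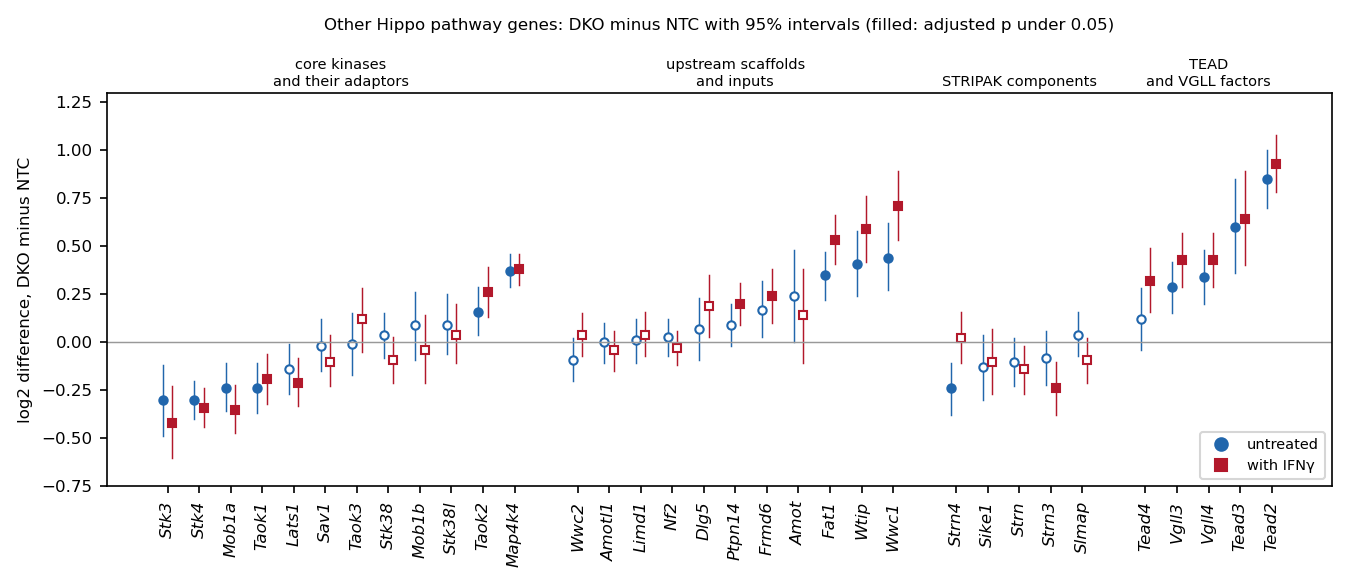
Differences in log2(TPM + 1) between DKO and NTC (y axis) for the 33 tested genes of the pathway list, by role, without IFNγ (circles) and with it (squares), with 95% intervals; filled symbols have an adjusted p under 0.05. The TEAD and VGLL factors lie above 0, with Tead2 highest at 0.85 and 0.93, and Stk3 lies lowest at -0.30 and -0.42.

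A list of 20 other YAP/TAZ targets held 11 tested genes. In DKO cells 2 were higher and 2 lower without IFNγ, and 4 were higher and 1 lower with it. The 4 and 5 called of 11 are close to the 36.4% and 43.3% called over all tested genes. *Tgfb2*, which encodes a TGFβ ligand, stood between 3.52 and 4.50 TPM in NTC and between 6.19 and 8.18 TPM in DKO libraries, and was higher by 0.75 (adjusted p = 2.17e-05) and 0.74 (adjusted p = 2.1e-05). *Arhgef17*, a guanine nucleotide exchange factor, was higher by 0.51 (adjusted p = 0.000723) and 0.86 (adjusted p = 8.86e-06), and *Crim1*, a transmembrane BMP regulator, by 0.55 (adjusted p = 0.00022) with IFNγ. *Gadd45a*, a stress-response gene, was lower (log2 difference -0.38, adjusted p = 0.0274) without IFNγ. This difference was -0.23, with an adjusted p of 0.128, when the first untreated NTC library was left out, and the change after IFNγ in NTC cells given below was then -0.26 with an adjusted p of 0.125. *Dock5*, an exchange factor for Rac, was lower, with differences of -0.23 (adjusted p = 0.0214) and -0.19 (adjusted p = 0.0382). Scaling to the same total gave -0.18 (adjusted p = 0.0545) and -0.11 (adjusted p = 0.198) for it. After IFNγ 4.78% of all tested genes were lower in NTC cells. Of the 11, 2 were lower, *Gadd45a* (log2 difference -0.41, adjusted p = 0.0463) and *Arhgef17* (log2 difference -0.36, adjusted p = 0.0258). With the GC content and length trends removed these were -0.29 (adjusted p = 0.214) and -0.18 (adjusted p = 0.153). Like *Cyr61*, *Arhgef17* was lowest in treated NTC libraries, at 4.69, 4.26 and 4.28 TPM.

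Genes driven by actin and serum response factor, several of which YAP also affects, were listed for comparison, and 9 of 12 were tested. In DKO cells 3 were higher and 2 lower without IFNγ, and 4 were higher and 1 lower with it, so that 5 of 9 were called in each comparison against 36.4% and 43.3% of all tested genes. *Srf* itself stood at 23.7, 25.1 and 25.1 TPM in untreated NTC, 19.3, 18.7 and 20.2 TPM in treated NTC, 19.1, 17.4 and 17.0 TPM in untreated DKO and 17.7, 19.6 and 15.5 TPM in treated DKO libraries. It was lower (log2 difference -0.45, adjusted p = 0.000474) in untreated DKO cells. After IFNγ in NTC cells its difference was -0.33 (adjusted p = 0.0184), a value of -0.02 (adjusted p = 0.91) once GC content and length trends were removed. The contractile genes *Myl9* (0.53, adjusted p = 0.0102, and 0.55, adjusted p = 0.007) and *Cnn2* (0.24, adjusted p = 0.0164, and 0.58, adjusted p = 2.45e-05) were higher in DKO cells under both conditions. *Tagln* was higher by 1.03 (adjusted p = 0.00077) with IFNγ and ran from 0 to 0.765 TPM in NTC and from 0.877 to 2.24 TPM in DKO libraries. *Tpm1*, a tropomyosin, was lower, with differences of -0.32 (adjusted p = 0.000135) and -0.30 (adjusted p = 0.000214). *Fos* was higher by 0.40 (adjusted p = 0.0436) without IFNγ, a value of 0.22 (adjusted p = 0.199) when the first untreated NTC library was left out. The calls of *Cnn2* without IFNγ and of *Dock5* in both comparisons were also lost with 1 library fewer, with adjusted p-values of up to 0.0615 for *Cnn2* and 0.135 for *Dock5*. Of the 6 genes of these lists called after IFNγ in NTC cells, 5 lost the call without the third treated NTC library, and *Srf* lost it without the second (adjusted p = 0.0689).

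The relatives of the targets were mostly at low levels, and 3 of 7 were tested. *Tyro3*, the other TAM receptor above 1 TPM, stood between 3.23 and 4.76 TPM in NTC and between 4.12 and 5.18 TPM in DKO libraries, with differences of 0.23 (adjusted p = 0.122) and 0.20 (adjusted p = 0.167). The ratio of *Axl* to *Tyro3* was 0.444 to 0.734 in NTC and 0.80 to 1.04 in DKO libraries. *Mertk*, which was not tested, lay lower in every DKO library, at 0.695 to 0.951 TPM in NTC and 0.316 to 0.664 TPM in DKO libraries. Of the TAM ligands, *Gas6* did not pass 0.19 TPM in any library, and *Pros1* was higher in DKO cells by 0.27 (adjusted p = 0.0282) and 0.24 (adjusted p = 0.046). Both *Pros1* calls were lost with 1 library fewer, the second at 0.16 (adjusted p = 0.19) without the first treated DKO library. In the CCN family, *Wisp1* stood at 11.2 to 14.6 TPM, near *Cyr61*, and was not called in any comparison by limma. *Nov* and *Wisp2* were not tested. *Nov* lay at 0.673 to 1.19 TPM in NTC and 0 to 0.596 TPM in DKO libraries, and *Wisp2* did not pass 0.53 TPM in any library. The ratio of *Cyr61* to *Ctgf* ran from 5.78 to 9.37 in NTC and from 5.19 to 9.55 in DKO libraries.

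For the coactivator *Yap1* and 3 targets, the genes with the most similar profiles over the 12 libraries were sought by the root mean square distance between centred log2(TPM + 1) values. *Yap1* was nearest to *Dag1* (0.0503), *Tnfrsf1a* (0.0506) and *Ubap2* (0.0510), against a median of 0.208 over all tested genes. *Axl* was nearest to *Dmpk* (0.0644), *Plat* (0.0733) and *Steap3* (0.0884), against a median of 0.391, and these too had higher means in both DKO groups. *Cyr61* was nearest to *Optc* (0.0846), CR536618.1 (0.0898) and *Zc3h4* (0.0904), whose means were lowest in treated NTC cells, against a median of 0.251. *Ctgf* was nearest to 2010111I01Rik (0.0734), *Ttc25* (0.0849) and *Stk24* (0.0893), against a median of 0.235.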

How the data were processed

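Poly(A)-selected, unstranded TruSeq libraries of 12 samples were sequenced. Per the submitters' processing notes and the study's methods, reads were aligned and quantified against a merged annotation by RSEM 1.2.4, which called Bowtie, and the rest were passed to TopHat 20.8b on mm10. The deposited table holds TPM, which the authors normalised, although its name speaks of counts. TPM keep no depth, so the number of reads behind a value is unknown. Replicate spread set the precision, and the median SD within a group was 0.069 to 0.093 on the log2 scale.

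The 11663 of 23022 genes that reached 1 TPM in 3 or more libraries were fitted as log2(TPM + 1) with limma 3.58.1 in R 4.3.3, with 1 mean per group over all 12 libraries and a variance trend. Two-sided p-values were Benjamini-Hochberg adjusted over these genes, with 0.05 as the threshold. Fold changes on this scale are understated for low genes. An exact permutation test of 3 against 3 libraries cannot go below 0.1 and was not used. The fit was tested on simulated data with independent noise and known differences in 1 group, a simpler case than these data.

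The 10 genes and all lists were chosen with earlier results of these data known. Besides them, the text names up to 3 genes per direction, comparison and list with the largest difference past the threshold, the 3 nearest profiles of *Yap1*, *Ctgf*, *Cyr61* and *Axl*, and *Mbnl1* and *Mbnl2*. Alternatives were a pseudocount of 0.1, no filter, a replicate block, scaling to the same total or by median ratios, each library left out, the 6 libraries of a comparison, and, chosen after seeing the data, removal of GC content and length trends without and with the block. Positions came from GENCODE M21 and promoters from RefSeq GRCm38.p6. Tables were made with pandas 2.3.3 and numpy 2.4.6 and plots with matplotlib 3.10.9, under Python 3.11.15.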

Additional observations from a re-analysis of the deposited data

How the results depend on the processing

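Over 20 alternatives (19 for the difference in response), the calls of *Cyr61* after IFNγ in NTC cells, *Wwtr1* and *Axl* in both genotype comparisons, *Tead1* in untreated cells, and *Yap1* and *Cyr61* with IFNγ were never lost. Of 891 values of the 9 genes under an alternative, 827 kept their direction and side of the threshold, 32 lost the call and 4 gained it. For IFNγ in NTC cells, the 1411 genes called became 897 with no filter, 466 with GC content and length trends removed and 361 with these and a replicate block, and 317 to 2023 with 1 library left out. For the 9 genes the 4 calls became 2 in both of the trend settings and 1 to 4 with 1 library left out. For the difference in response, 4 genes became 10 with no filter, 2 with a replicate block and 0 to 7 with 1 library left out. For DKO against NTC in untreated cells the 5 calls of the 9 genes became 3 to 5 with 1 library left out. The share of higher calls after IFNγ in NTC cells was 60.5%, and 45.1% with scaling to the same total or 48.8% by median ratios. Same-numbered replicates correlated between -0.179 and 0.182, and 2 of 12 libraries were closest to their own number. No pairing by number was detected, which does not show that the libraries were unpaired. With a replicate block the 9 genes gave 3 calls for IFNγ in NTC cells, 5 for untreated and 4 for treated DKO cells, and over all genes 1118, 4063 and 4899. Values that changed sign were all outside the threshold under the alternative. With GC content and length trends removed, without and with the replicate block alike, *Lats2* with IFNγ was -0.04, *Amotl2* -0.09 and *Ajuba* -0.07 between genotypes, *Ctgf* after IFNγ in DKO cells -0.02, the difference in response of *Axl* -0.07 and the melanocyte marker *Sox10* after IFNγ in NTC cells 0.07, from -0.25. *Ctgf* after IFNγ in DKO cells was 0.00 with either the pseudocount of 0.1 or median-ratio scaling, and the difference in response of *Axl* was -0.01 with that pseudocount. With 1 library left out, *Tead1* after IFNγ in NTC cells ran from -0.11 to 0.00, *Ajuba* in DKO cells from -0.20 to 0.07, *Ctgf* in DKO cells from -0.12 to 0.14, the difference in response from -0.03 to 0.23 for *Ctgf* and from -0.08 to 0.06 for *Axl*, and the treated genotype difference from -0.05 to 0.11 for *Amotl2* and from -0.09 to 0.08 for *Ajuba*. The cause of these changes was not tested. TPM keep no depth, so what depth limits could not be computed.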
